A study of Mus musculus with 6 samples.

Results

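The expression of Atf4 and of 9 genes of its stress response was examined in 4T1-tetL1(GLucAI) cells, a population of the mouse breast carcinoma line 4T1 that carries an integrated cassette with a doxycycline-inducible, recoded LINE-1 (L1) retrotransposon. The genes were taken by symbol from the count table: Atf4, Atf5, Cebpb, Ddit3, Asns, Chac1, Ddit4, Sesn2, Trib3 and Ppp1r15a. All 10 were among the 24421 genes of the table and among the 13084 that had enough counts to test. Total RNA was sequenced from 3 untreated cultures and from 3 cultures that received 400 ng/mL doxycycline during 48 h. All 6 cultures were of strain BALB/cfC3H origin and carried the cassette, together with its constitutively expressed tetracycline-responsive activator and a firefly luciferase gene under the same inducible promoter. The cells are a drug-selected population and not a single clone. The treatment tag calls the untreated group vehicle. Doxycycline was given in every induced culture and in no other, so the drug, the induced L1 and the induced luciferase cannot be told apart here. The transcript of the cassette was not analysed here, so every direction rests on the labels.

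ATF4 is the transcription factor at the center of the integrated stress response. Kinases that sense amino acid shortage, misfolded protein in the endoplasmic reticulum, heme lack, mitochondrial distress or double-stranded RNA phosphorylate the initiation factor eIF2, which slows most protein synthesis while short upstream reading frames let the ribosome reach the Atf4 coding sequence. ATF4 then binds as a dimer with C/EBP proteins to a composite DNA element and drives genes of amino acid supply, redox balance and, under lasting stress, cell death. Because much of this control is on translation, the level of Atf4 mRNA reports on ATF4 activity only in part, and the target genes are commonly read beside it.

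The promoters of some members hold the letters of the composite element, and these stretches are shown. Sequences are from RefSeq (GRCm38.p6), 250 bases before to 50 after an annotated start, and all 10 members had an entry, with 2 for Atf5. Elements outside this window were not searched. The letters TGATGNAA were searched on both strands, and 1304 of 32851 promoters (3.97%) held them. Among the members they stood in Chac1, Trib3 and Asns. The cyclic AMP response element TGACGTCA, present in 1.79% of all promoters, was found in Ppp1r15a. The letters ACGTG are a form of the core of the sites bound by hypoxia-inducible factors (HIF) and also a part of the E-box CACGTG. They were present in 19.6% of all promoters and in Ddit4, Asns, Ppp1r15a and Ddit3. In Asns and Ddit3 they lie on the opposite strand. Only these letters are called the HIF core below, and other forms such as GCGTG were neither searched nor marked. None of the 3 motifs was in the windows of Atf4, Atf5, Cebpb and Sesn2. Positions are counted from the annotated start, and the capitals mark the motif.
Chac1 (chr2:119351039-119351066, plus strand, bases -203 to -176, composite element on the opposite strand): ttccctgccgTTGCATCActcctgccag
Trib3 (chr2:152344029-152344056, minus strand, bases 5 to 32 after the start, composite element on the opposite strand): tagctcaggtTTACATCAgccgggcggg
Ppp1r15a (chr7:45526263-45526290, minus strand, bases -22 to 6, cyclic AMP response element): gcctctccggTGACGTCAgcacagcgcc
Asns, whose level was higher with doxycycline (chr6:7693210-7693459, minus strand, bases -250 to -1, opposite-strand HIF core and then the composite element in capitals): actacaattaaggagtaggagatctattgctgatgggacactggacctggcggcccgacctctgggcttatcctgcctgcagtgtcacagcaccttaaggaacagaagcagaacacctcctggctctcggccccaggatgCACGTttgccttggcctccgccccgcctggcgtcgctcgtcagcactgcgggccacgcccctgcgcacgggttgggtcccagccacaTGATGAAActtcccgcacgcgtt
Ddit4, whose level was lower with doxycycline (chr10:59951771-59952020, minus strand, bases -250 to -1, HIF core in capitals): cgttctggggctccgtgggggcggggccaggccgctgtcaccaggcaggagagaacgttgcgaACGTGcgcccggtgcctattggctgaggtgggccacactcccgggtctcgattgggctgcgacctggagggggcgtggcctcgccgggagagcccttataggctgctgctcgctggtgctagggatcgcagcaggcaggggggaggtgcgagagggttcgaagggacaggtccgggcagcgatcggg
A match of letters is a description of the sequence and not evidence of binding.

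Library totals ran from 31653464 to 43631312 counts, and the ranges of the groups overlapped. Levels are given as CPM, the share of a library's counts on a common scale, with totals adjusted by the TMM method. In the shallowest library 3 counts correspond to 0.0943 CPM, whereas the lowest count of any member in any library was 138. Counting error alone gives a coefficient of variation of 1.20% for Atf4 and 7.64% for Ddit3, the members with the most and the fewest counts. The study describes its cultures as biological triplicates, and the labels do not state how separate they were, so p-values measure only the spread between these libraries. Of 7 epithelial carcinoma markers all were detected, with summed levels of 1809 to 1896 CPM in untreated and 1755 to 1986 CPM in doxycycline libraries, although Krt19 was called lower. The 12 markers of immune, endothelial and stromal cells summed to 10.4 to 14.2 CPM in untreated and 10.9 to 12.3 CPM in doxycycline libraries. Without the macrophage and lysosome gene Cd68 these sums were 1.30 to 3.10 and 1.66 to 2.35 CPM, and Adgre1 and Lum were at 0 in every library.

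Doxycycline was accompanied by small changes in opposite directions. In bulk RNA a change in the share of cells that express a gene and a change in RNA per cell cannot be told apart. Atf4 and its target Asns rose by 15.1 and 16.1%, Ddit4 fell by 35.6% and Cebpb fell by 14.9%. The other 6 members, with the classical stress markers Ddit3, Trib3 and Chac1 among them, did not pass the test. Of the 10 members, 2 were called higher and 2 lower by the quasi-likelihood test of edgeR with a Benjamini-Hochberg adjusted p below 0.05 over all tested genes. Over all 13084 genes, 0.925% were called higher, 2.16% lower and 3.09% in either direction. For 5 of the 10 members, and for 21.3% of all tested genes, the ranges of the groups were apart. Before adjustment, 4 members and 16.2% of all genes had p below 0.05. The median log2 fold change was 0.05 for the members and 0.002 for all genes, and the median absolute values were 0.18 and 0.09. The members were named with earlier results of these data known, so the shares are a description.

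**Figure D1:**
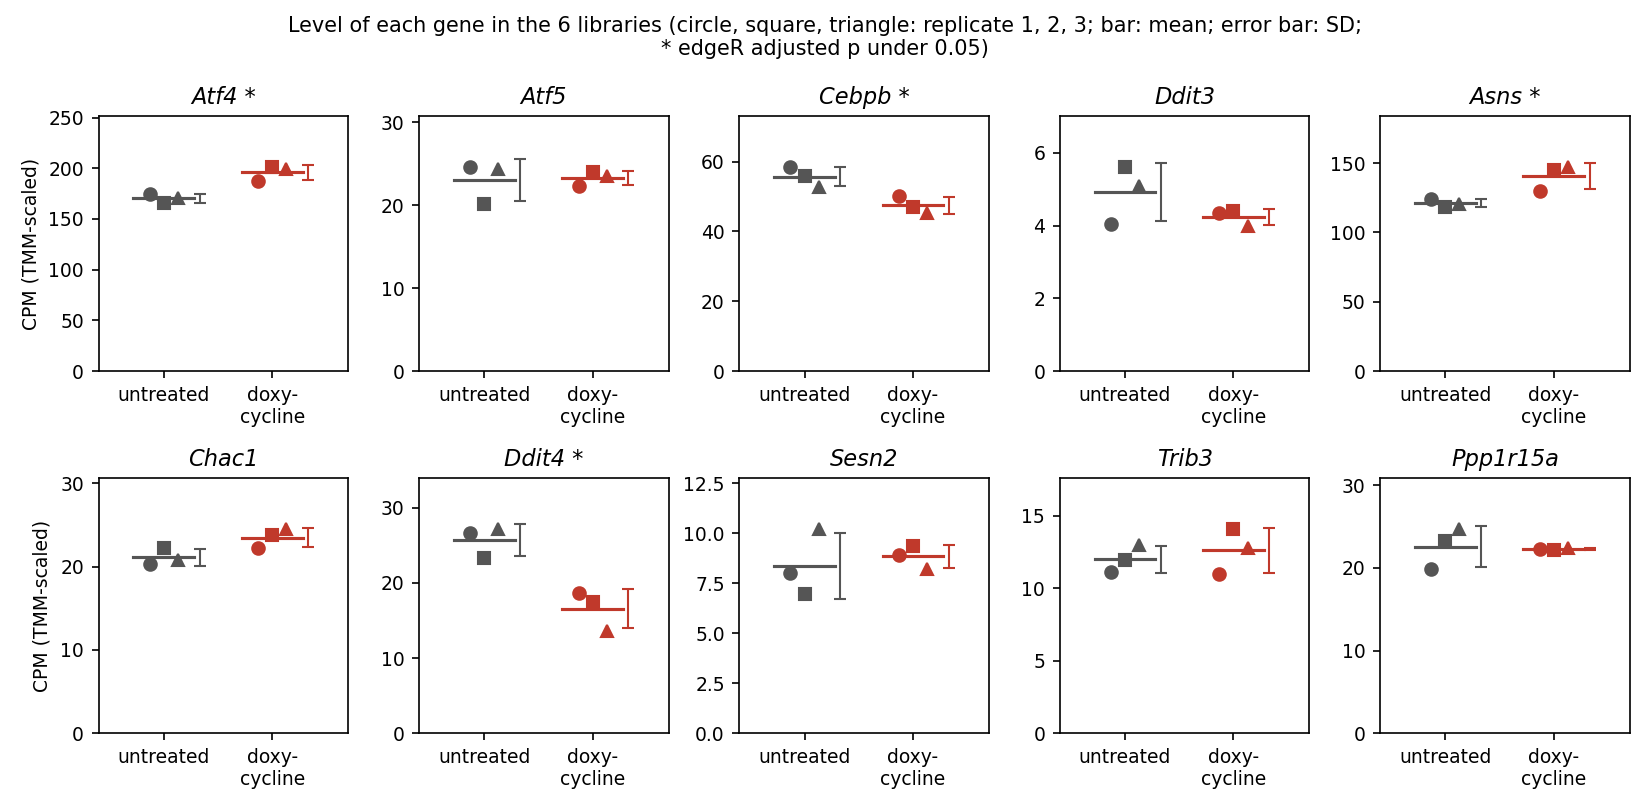
CPM (vertical axes, each starting at 0) of the 10 genes in the 3 untreated libraries (grey) and the 3 doxycycline libraries (red), with replicates 1 to 3 as circle, square and triangle, the mean as a bar and the SD as an error bar. The red points lie above all grey points for Atf4, Asns and Chac1 and below all of them for Ddit4 and Cebpb, while the points of the other 5 genes overlap.

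Among the transcription factors, Atf4 (chromosome 15, 80255184 to 80257545, protein-coding) had 174, 166 and 171 CPM in untreated replicates 1 to 3. In doxycycline replicates 1 to 3 it had 187, 201 and 200 CPM. All 3 doxycycline libraries were above all 3 untreated ones, with the smallest gap between untreated replicate 1 and doxycycline replicate 1. The mean went from 170 ± 4.38 to 196 ± 7.63 CPM (SD, n = 3 each), an increase of 15.1% (95% interval 7.65 to 23.1%). The log2 fold change was 0.20 with an SE of 0.05 (edgeR adjusted p 0.0149). The estimate was 0.18 to 0.23 in the 6 fits that each left out 1 library, but the call was kept only without doxycycline replicate 1 or 2. Its edgeR adjusted p was 0.0573, 0.121 and 0.109 without untreated replicates 1 to 3 and 0.0907 without doxycycline replicate 3.

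Atf5, a closely related factor that is likewise controlled by upstream reading frames and acts in the mitochondrial stress response, stayed within the spread of its libraries. Untreated libraries had 24.6, 20.1 and 24.4 CPM and doxycycline libraries 22.3, 23.9 and 23.6 CPM. Untreated replicate 2 was the lowest of the 6 and the groups overlapped. The log2 fold change was 0.01 (SE 0.08, 95% interval -0.16 to 0.19, edgeR adjusted p 0.961), and the upper end of this interval is just below the estimate for Atf4. Its sign depended on the libraries used, at -0.07 without untreated replicate 2 and -0.008 without doxycycline replicate 2. Atf5 (chromosome 7, 44812256 to 44816658) overlaps Nup62, which lies on the opposite strand, and Il4i1b, and the strand setting of the counting is not stated.

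Cebpb (chromosome 2, 167688915 to 167690432, protein-coding) encodes C/EBPβ, a bZIP factor that pairs with ATF4 and also drives acute-phase and inflammatory genes. It had 58.4, 56.0 and 52.8 CPM in untreated and 50.1, 47.0 and 45.4 CPM in doxycycline libraries. Every doxycycline library was below every untreated one. The mean fell from 55.7 ± 2.79 to 47.5 ± 2.36 CPM (SD, n = 3 each), with a log2 fold change of -0.23 with an SE of 0.06 (edgeR adjusted p 0.0399). The leave-out estimates were -0.27 to -0.20. The call was lost without any of the untreated libraries (edgeR adjusted p 0.231, 0.139 and 0.0724 for replicates 1 to 3) and without doxycycline replicate 3 (0.198).

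Ddit3 (chromosome 10, 127290793 to 127296291, protein-coding) encodes CHOP, the factor through which prolonged stress promotes cell death. It was one of the least abundant members, at 4.05, 5.60 and 5.10 CPM in untreated and 4.34, 4.41 and 4.00 CPM in doxycycline libraries. Untreated replicate 1 lay within the doxycycline range. The log2 fold change was -0.21 (SE 0.16, 95% interval -0.53 to 0.12, edgeR adjusted p 0.552), and it was below 0 in all 6 leave-out fits (-0.33 to -0.10). Ddit3 overlaps Mbd6 and Mars1, both on the opposite strand.

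Of the target enzymes, Asns (chromosome 6, 7675165 to 7693209, protein-coding) encodes asparagine synthetase, which makes asparagine from aspartate and glutamine and is induced by amino acid shortage through ATF4. It had 124, 118 and 121 CPM in untreated and 130, 145 and 147 CPM in doxycycline libraries. The groups did not overlap, and doxycycline replicate 1 stood closer to the untreated libraries than replicates 2 and 3. The mean rose from 121 ± 3.04 to 141 ± 9.31 CPM (SD, n = 3 each), an increase of 16.1% (95% interval 7.70 to 25.1%) with a log2 fold change of 0.21 with an SE of 0.05 (edgeR adjusted p 0.0221). The estimate was 0.18 to 0.27 in the leave-out fits. The call was lost in the same 4 of them as that of Atf4, with edgeR adjusted p of 0.0685, 0.136 and 0.148 without untreated replicates 1 to 3 and 0.153 without doxycycline replicate 3.

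Chac1 (chromosome 2, 119351242 to 119354326, protein-coding) encodes a glutathione-degrading enzyme that is among the most inducible ATF4 targets. It had 20.3, 22.2 and 20.8 CPM in untreated and 22.2, 23.8 and 24.5 CPM in doxycycline libraries. The groups did not overlap, but untreated replicate 2 and doxycycline replicate 1 stood at nearly the same level. The log2 fold change was 0.16 (SE 0.08, 95% interval -0.005 to 0.32) and did not pass the test (edgeR adjusted p 0.328). It was above 0 in all 6 leave-out fits, from 0.13 to 0.19, and was called in 0 of them (edgeR adjusted p 0.217 to 0.597).

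Ddit4 and Sesn2 encode REDD1 and Sestrin 2, proteins that restrain the growth kinase complex mTORC1 under stress. Ddit4 (chromosome 10, 59949675 to 59951770, protein-coding) had the largest change of the members. It had 26.7, 23.3 and 27.1 CPM in untreated and 18.7, 17.5 and 13.6 CPM in doxycycline libraries. The lowest untreated library was well above the highest doxycycline library, and doxycycline replicate 3 was the lowest of all. The mean fell from 25.7 ± 2.11 to 16.6 ± 2.63 CPM (SD, n = 3 each). Its level fell by 35.6% (95% interval -44.3 to -25.5%), a log2 fold change of -0.63 with an SE of 0.10 (edgeR adjusted p 0.000635). Ddit4 was the only member called in all 6 leave-out fits, with estimates of -0.72 to -0.51 and edgeR adjusted p of at most 0.0133.

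Sesn2 (chromosome 4, 132492804 to 132510456, protein-coding) had 7.99, 6.95 and 10.2 CPM in untreated and 8.93, 9.38 and 8.23 CPM in doxycycline libraries. The doxycycline values lay inside the untreated range. Its coefficient of variation was 19.8% in untreated and 6.56% in doxycycline libraries, and counting error alone gives 5.55%. The log2 fold change was 0.08 (SE 0.13, 95% interval -0.20 to 0.35, edgeR adjusted p 0.838), with estimates from -0.04 without untreated replicate 2 to 0.24 without untreated replicate 3.

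The remaining members are brakes on the response. Trib3, a pseudokinase that binds ATF4 and CHOP and inhibits AKT, had 11.1, 11.9 and 12.9 CPM in untreated and 10.97, 14.1 and 12.8 CPM in doxycycline libraries. Both the lowest and the highest value belonged to doxycycline libraries. Its log2 fold change was 0.08 (SE 0.11, 95% interval -0.15 to 0.30, edgeR adjusted p 0.788) and turned to -0.009 without doxycycline replicate 2. Trib3 lies on chromosome 2, 152337425 to 152344060.

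Ppp1r15a (chromosome 7, 45522917 to 45526268) encodes GADD34, the subunit that brings protein phosphatase 1 to eIF2 and so ends the response. It had 19.9, 23.3 and 24.7 CPM in untreated and 22.2, 22.2 and 22.4 CPM in doxycycline libraries. The doxycycline values lay close together inside the wider untreated range, with an SD of 0.143 against 2.48 CPM. Their coefficient of variation of 0.644% was below the 3.45% that counting error alone gives on average. The log2 fold change was -0.02 (SE 0.08, 95% interval -0.19 to 0.16, edgeR adjusted p 0.947), and its sign turned without untreated replicate 2 (0.004) or replicate 3 (0.05). It overlaps Tulp2 on the opposite strand.

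**Figure D2:**
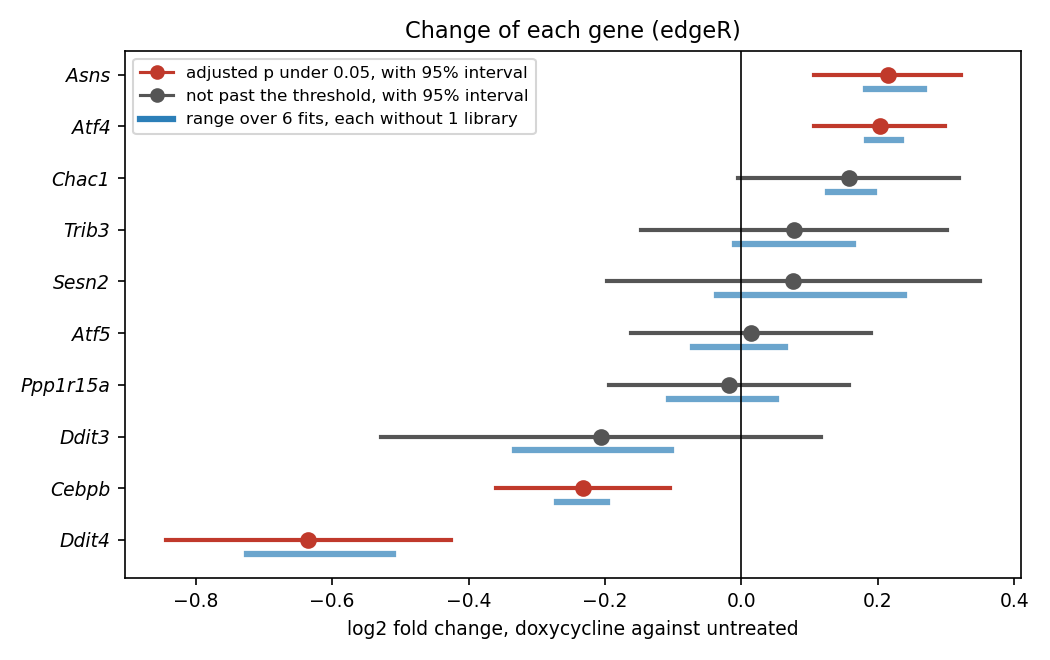
Log2 fold change of doxycycline against untreated libraries (horizontal axis) for the 10 genes, as points with 95% intervals (red where the edgeR adjusted p is under 0.05, grey otherwise), with the range over 6 fits that each left out 1 library in blue. Ddit4 lies at -0.63, Cebpb at -0.23, Atf4 at 0.20 and Asns at 0.21, and the blue bars of Atf5, Ppp1r15a, Sesn2 and Trib3 cross 0.

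To compare levels between genes, CPM were divided by the exon length of each gene in kilobases (GENCODE M21, all isoforms joined). In untreated libraries Atf4 was the most abundant, at 72.2 ± 1.86 CPM per kb (SD, n = 3), followed by Asns at 44.3 ± 1.11 and Cebpb at 37.1 ± 1.85. Ddit4 (14.6 ± 1.20), Chac1 (12.9 ± 0.589) and Atf5 (11.6 ± 1.27) formed a middle group, then came Ppp1r15a at 7.69 ± 0.843 and Trib3 at 5.64 ± 0.438 CPM per kb. Ddit3 (2.87 ± 0.462) and Sesn2 (2.41 ± 0.477) were lowest. The libraries of neighbors in this order overlapped for Ddit4 with Chac1 and for Ddit3 with Sesn2, and did not overlap for the other neighbors. In doxycycline libraries Ddit4 stood at 9.45 CPM per kb, below Chac1 at 14.3 ± 0.711 and Atf5 at 11.7 ± 0.424. Sesn2 stood at 2.55 ± 0.167 and Ddit3 at 2.48 ± 0.129 CPM per kb, the reverse of their untreated order. The libraries of these genes overlapped in both groups.

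**Figure D3:**
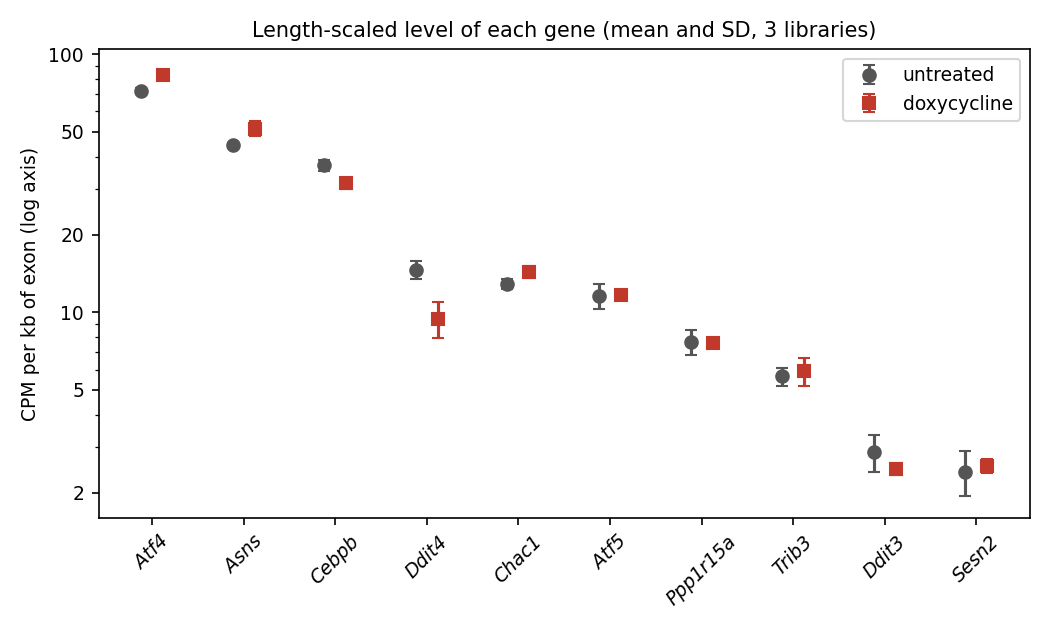
CPM per kilobase of exon (log axis) of the 10 genes in untreated (grey circles) and doxycycline libraries (red squares), as mean and SD of 3 libraries, ordered by the untreated level. Atf4 is highest at 72.2 and 83.1 CPM per kb, and Ddit4 goes from 14.6 to 9.45 CPM per kb, below Chac1 and Atf5. The means of Ddit3 and Sesn2 also change places, at 2.48 and 2.55 CPM per kb with doxycycline, but their libraries overlap in both groups.

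The tested genes whose profile over the 6 libraries was nearest to that of Atf4, by the root-mean-square difference of centered log2 CPM among 8780 genes with a mean of at least 10 CPM, were Cstf1, Zfp276 and Asns. Their differences were 0.02, 0.02 and 0.03 log2 units, against a median of 0.13 over all candidates. Asns was thus the third nearest, and the only one of them called. Cstf1, a subunit of the cleavage stimulation factor of mRNA 3′ ends, went from 36.5 ± 1.38 to 41.9 ± 2.03 CPM (edgeR adjusted p 0.105). The genes nearest to Ddit4 were Ccng2, Arrb1 and Egln3, at 0.06, 0.09 and 0.10 log2 units against a median of 0.36. Ccng2, which encodes cyclin G2, fell from 35.2 ± 3.92 to 21.7 ± 2.86 CPM (log2 fold change -0.70, edgeR adjusted p 0.000108). Arrb1, which encodes β-arrestin 1, fell from 29.1 ± 0.613 to 20.5 ± 2.67 CPM (-0.51, edgeR adjusted p 0.00108). These are descriptions over 6 libraries in 2 groups, so any gene that differs between the groups by a similar amount would be near.

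The wider ATF4 network was read from a list of 40 further genes of amino acid supply, secretion and survival, of which 37 were tested. Of these, edgeR called 4 higher and 1 lower (13.5%, against 3.09% of all genes). DESeq2 called 6 higher and 1 lower, and limma voom 4 and 1. Over all tested genes, edgeR called 0.925% higher and 2.16% lower. Before adjustment, 17 of the 37 had an edgeR p below 0.05, against 16.2% of all tested genes. Above 0 were 24 of 37, with a median log2 fold change of 0.06, and 6641 of all 13084, with a median of 0.002. Leaving out 1 library gave 1 higher call without untreated replicate 2 or 3 or doxycycline replicate 3, 2 without untreated replicate 1, and 6 and 7 without doxycycline replicates 2 and 1, beside 0 to 2 lower calls. Mthfd2, the mitochondrial enzyme of the folate cycle, had 74.6, 73.3 and 72.5 CPM in untreated and 91.4, 88.7 and 95.5 CPM in doxycycline libraries. All doxycycline values were higher, with a log2 fold change of 0.32 with an SE of 0.05 (edgeR adjusted p 0.000681), a call kept in all 6 leave-out fits. The other higher calls were the cysteinyl- and threonyl-tRNA synthetases Cars (0.22, edgeR adjusted p 0.0216) and Tars (0.19, 0.0135) and the glutamine transporter Slc1a5 (0.20, 0.0257).

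Sqstm1, which encodes the autophagy receptor p62 and is also a target of NRF2, was the lower call, from 281 ± 9.87 to 244 ± 1.37 CPM (-0.20 ± 0.04 on the log2 scale with SE, edgeR adjusted p 0.0113). Slc7a11, the cystine transporter driven by both ATF4 and NRF2, had 53.4 ± 1.20 and 46.5 ± 2.64 CPM and did not pass the test (-0.20, edgeR adjusted p 0.0805). It was called by edgeR without doxycycline replicate 2 (0.0219) and without the gene filter (0.0483). Without untreated replicate 3, the calls of Cars (edgeR adjusted p 0.159), Tars (0.150), Slc1a5 (0.244) and Sqstm1 (0.150) were all lost. Leaving out untreated replicate 1, untreated replicate 2 or doxycycline replicate 3 also ended the calls of Cars (0.0988, 0.0842 and 0.0702) and Tars (0.0588, 0.0753 and 0.0792). Slc1a5 was lost without untreated replicate 2 (0.101) or doxycycline replicate 3 (0.114), and Sqstm1 without untreated replicate 1 (0.0534) or doxycycline replicate 3 (0.0610). Gdf15 and Fgf21, which encode hormones of the response, were barely present. Gdf15 had 2, 0, 0, 0, 0 and 5 counts and Fgf21 had 8, 0, 4, 0, 0 and 2 counts over untreated and then doxycycline replicates 1 to 3, too few to test.

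**Figure D4:**
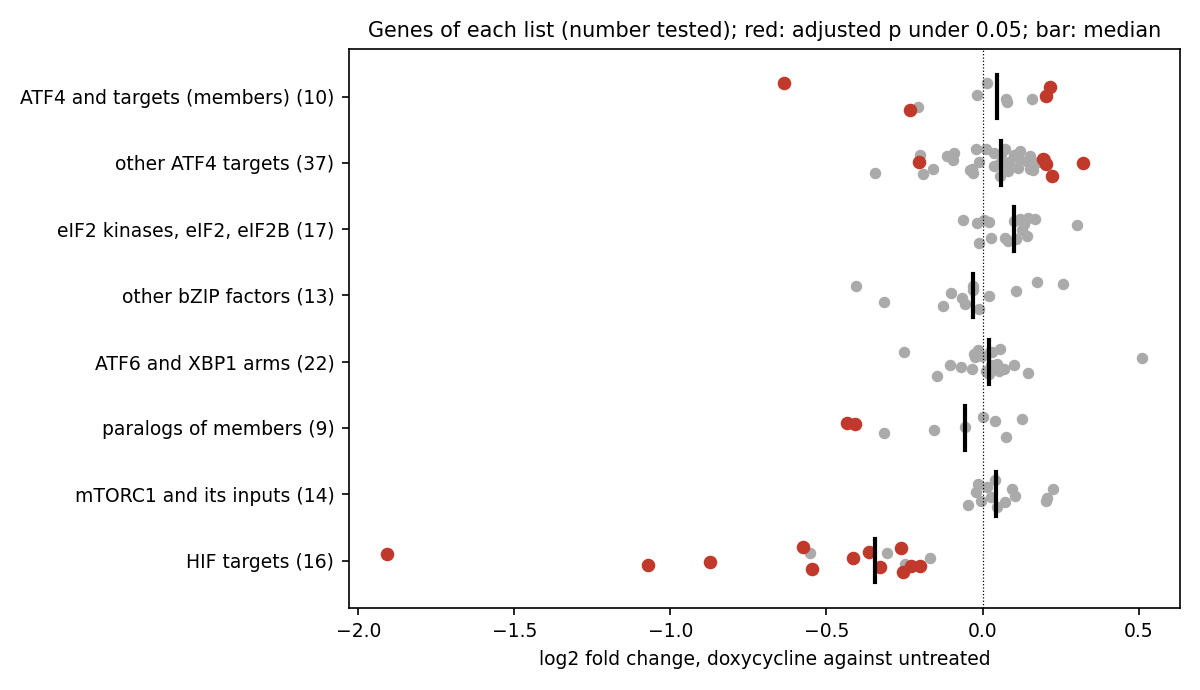
Log2 fold change of doxycycline against untreated libraries (horizontal axis) for the tested genes of 8 lists, one point per gene (vertical scatter has no meaning), red where the edgeR adjusted p is under 0.05, with the median as a bar. The 10 members have called genes on both sides of 0, whereas the 16 HIF targets all lie below 0 with a median of -0.35.

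Upstream of ATF4, the 17 genes for eIF2 kinases, eIF2, its exchange factor eIF2B and their regulators gave 0 calls by edgeR and 0 by DESeq2 and limma voom. Over all tested genes, edgeR called 3.09%. Before adjustment, 6 of the 17 were below 0.05, against 16.2% of all tested genes. Without doxycycline replicates 1 and 2 in turn, 1 and 2 of the 17 were called higher. Of the 17 genes 14 were above 0, with a median log2 fold change of 0.10. Of all 13084 tested genes 6641 were above 0, with a median of 0.002. These are mRNA levels, and neither kinase activity nor the phosphorylation of eIF2 was measured in these data. The kinases Eif2ak3 (PERK), Eif2ak1 (HRI), Eif2ak2 (PKR) and Eif2ak4 (GCN2) had log2 fold changes of -0.06, 0.02, 0.11 and 0.13, with edgeR adjusted p of 0.832, 0.922, 0.324 and 0.284. Oma1, a mitochondrial protease that relays mitochondrial stress to HRI, had 6.33 ± 0.206 and 7.80 ± 0.244 CPM (0.30, edgeR adjusted p 0.203). Ppp1r15b, the constitutive counterpart of Ppp1r15a, had 216 ± 2.43 and 236 ± 4.59 CPM (0.13, edgeR adjusted p 0.131). Among the leave-out fits it was called only without doxycycline replicate 2 (edgeR adjusted p 0.0310).

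The parallel ATF6 and XBP1 arms of the unfolded protein response, which raise chaperones of the endoplasmic reticulum, gave 0 calls in 22 tested genes by edgeR, DESeq2 and limma voom. Before adjustment, 2 of the 22 were below 0.05, against 16.2% of all tested genes. Without doxycycline replicate 1, edgeR called 1 higher and 1 lower. The median log2 fold change was 0.02. Hspa5, the chaperone BiP that serves as the standard readout of that stress, had 1757 ± 21.4 and 1828 ± 32.5 CPM (0.06, SE 0.04, edgeR adjusted p 0.529). Among 13 tested bZIP factors that pair with or resemble ATF4, edgeR called 0, DESeq2 called 1 and limma voom 0. Before adjustment, 7 of the 13 were below 0.05, against 16.2% of all tested genes. The DESeq2 call was Fosl1, a partner of the Jun factors that had a log2 fold change of 0.26 in edgeR (adjusted p 0.0772). Without the gene filter, edgeR called Fosl1 higher (adjusted p 0.04996) and Atf3 lower (0.0113). The largest difference was in Atf3, an ATF4-induced repressor. It had 9.95, 13.8 and 14.7 CPM in untreated and 9.37, 10.2 and 9.27 CPM in doxycycline libraries, so that untreated replicate 1 fell in the doxycycline range (-0.41, SE 0.13, edgeR adjusted p 0.0881). Without untreated replicate 1 it was called (-0.57, edgeR adjusted p 0.0142), as it was without doxycycline replicate 2 (-0.45, 0.0273).

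Among 9 tested paralogs of the members, 2 were called lower and 0 higher by edgeR, DESeq2 and limma voom alike. Over all tested genes, edgeR called 2.16% lower and 0.925% higher. Before adjustment, 4 of the 9 paralogs had p below 0.05, against 16.2% of all tested genes. Trib2, a paralog of Trib3, had 58.5, 54.4 and 59.4 CPM in untreated and 45.9, 40.6 and 41.1 CPM in doxycycline libraries. No doxycycline library reached the untreated range (-0.43 ± 0.06 on the log2 scale with SE, edgeR adjusted p 0.000283). Sesn3, a paralog of Sesn2, had 24.7, 23.0 and 22.5 CPM in untreated and 18.9, 17.3 and 16.7 CPM in doxycycline libraries. These groups did not overlap either (-0.41, SE 0.08, edgeR adjusted p 0.00591), although the call was lost without untreated replicate 1 (-0.37, 0.0648). The intervals of Trib3 (-0.15 to 0.30) and Sesn2 (-0.20 to 0.35) did not reach these values, but the difference between paralogs was not tested. The other 7 did not pass the test, among them Trib1 (0.04, edgeR adjusted p 0.769), Chac2 (-0.16, 0.523), Cebpg (-0.06, 0.709) and Cebpd (-0.32, 0.247).

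Ddit4 is a target of HIF as well as of ATF4. Among 16 other HIF targets, 12 were called lower and 0 higher, and all 16 were below 0, with a median log2 fold change of -0.35. Over all tested genes, 2.16% were called lower and 0.925% higher, 6443 of 13084 were below 0, and the median was 0.002. All 16 HIF targets were below 0.05 before adjustment, against 16.2% of all tested genes. Among the called HIF targets the largest changes were in Adm (-1.91, edgeR adjusted p 0.0170), Bnip3 (-1.07, 0.00129), Car9 (-0.87, 0.00211), Ndrg1 (-0.58, 0.0115) and Egln3 (-0.55, 4.09e-06). The summed level of the 16 genes was 2493 to 2656 CPM in untreated and 2043 to 2126 CPM in doxycycline libraries. From 8 to 13 of them were called lower across the alternatives, with the fewest without untreated replicate 3. Adm had under 2 CPM in every library, and its call was lost without untreated replicate 1 or 3 or doxycycline replicate 3 (edgeR adjusted p 0.0685, 0.168 and 0.134). Bnip3 was lost without doxycycline replicate 2 (0.152), and Ndrg1 without doxycycline replicate 1 or 2 (0.0830 and 0.235). The part of HIF activity in the level of Ddit4 was not tested. Among 14 tested genes of mTORC1 and its inputs, through which Ddit4 and Sesn2 act, edgeR, DESeq2 and limma voom called 0. Before adjustment, 2 of the 14 were below 0.05, against 16.2% of all tested genes, and their median log2 fold change was 0.04. These are mRNA levels, and the activity of mTORC1 was not measured in these data.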

How the data were processed

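Total RNA of 6 cultures was depleted of ribosomal RNA and sequenced from strand-preserving libraries. The authors aligned reads with STAR to mm10/GRCm38, counted them per gene with featureCounts and deposited raw counts, with replicates apart. Their processing notes name Subread 1.6.2. The strand setting, and how multi-mapping reads were treated, are not given in the sources used here, so values of overlapping genes are uncertain.

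Groups were taken from the sample titles, and columns were matched by library code. Of 24421 genes, 13084 passed edgeR's filterByExpr. They were tested with the quasi-likelihood test of edgeR 4.0.16 (R 4.3.3, robust, TMM, group as the only term), with Benjamini-Hochberg adjustment over all of them. The study's methods name DESeq2 and no covariate. The SE is the absolute log2 fold change over the square root of F, and 95% intervals use the t quantile of its degrees of freedom. Replicate pairs differed by more than sampling noise (chi-square per degree of freedom of 6.37 to 23.3). Alternatives were 3 other scalings, 2 other filters, a replicate block, leaving out each library, DESeq2 1.42.0 and limma voom 3.58.1. The code was tested on simulated counts.

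The members and gene lists were chosen with earlier results of these data known. The rule for named genes takes all members, up to 5 called genes with the largest change from each list, genes described beside a member as paralog or partner, and the 3 genes nearest to Atf4 and to Ddit4. Gdf15, Fgf21, the 4 eIF2 kinases, Oma1, Slc7a11, Hspa5, Fosl1, Krt19, Cd68, Adgre1, Lum and Atf3 were named outside it, after their values were seen. Gcn1 and Dele1 were matched by their older symbols Gcn1l1 and 0610009O20Rik. Coordinates are from RefSeq (GRCm38.p6), counted from 1.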

Additional observations from a re-analysis of the deposited data

How the results depend on the processing

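The 2 higher and 2 lower calls among the members were obtained under each of the other scalings, filters and tools, and all 10 log2 fold changes kept their sign in these 8 alternatives. Leaving out the filter changed the number of all genes called to 210 higher and 439 lower, and the cause was not tested. In the 6 fits that each left out 1 library, 0 to 2 members were called higher and 1 to 2 lower, while the calls among all genes ranged over 44 to 269 higher and 116 to 487 lower, with the minimum when untreated replicate 3 and the maximum when doxycycline replicate 2 was left out. The cause was not tested. Signs changed for members near 0: Atf5 ran from -0.071 to 0.064, Sesn2 from -0.036 to 0.24, Ppp1r15a from -0.11 to 0.050 and Trib3 from -0.0094 to 0.16.

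The groups share replicate numbers, but same-numbered libraries did not deviate together (correlations of deviations over genes of -0.040, -0.0045 and 0.018). Of the libraries, only doxycycline replicate 3 correlated best with its own number. With the replicate number as a block, 2 members were called higher and 2 lower, and 118 and 300 of all genes. The same alternatives for genes and lists other than the members were added after the data were seen. Across scalings the median over all genes stayed between -0.0074 and 0.0025. With 3 libraries a group the 95% interval of Ddit3, the member with the fewest counts, spans -0.53 to 0.12, which is wider than the whole change of Atf4.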
